A study of Mus musculus with 29 samples.

Results

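At 2530 places in the mouse genome a Pou4f3 ChIP-seq peak was listed in both lines that expressed Pou4f3 together with Gfi1 and in neither line that expressed Pou4f3 without Gfi1. They were found by placing a 300 bp window on every summit of 9 peak lists, joining windows that shared at least 1 bp into sites, and keeping sites with a Pou4f3 peak in iG+P and iGPA cells and none in iPou4f3 and iP+A cells. The joining gave 78408 sites in all. Of these, 47440 held a Pou4f3 peak in at least 1 line, so that the kept sites were 5.33% of the Pou4f3 sites. The sites were thus chosen by their Pou4f3 peak calls in those 4 lists, and nothing about that presence is tested. They are called Gfi1-line sites here, because the rule reads only which lists hold a peak and not whether Pou4f3 binding there depends on Gfi1. The reverse set, with a peak in iPou4f3 and iP+A and none in iG+P and iGPA, numbered 1015 and is called the mirror sites. The 7032 sites with a peak in all 4 Pou4f3 lists are called core sites.

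Pou4f3 is a POU-homeodomain transcription factor required for the maturation and survival of mechanosensory hair cells of the inner ear. The POU-specific domain and the homeodomain each contact DNA, and together they recognise an AT-rich sequence. Gfi1 is a zinc-finger repressor, best known from blood cells, that hair cells also need, and Atoh1 is the bHLH activator that starts hair cell development and binds E-boxes.

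Chromatin came from embryoid bodies of A2loxCre mouse embryonic stem cells carrying a doxycycline-inducible cassette with a Venus reporter, collected at day 6 after 48 h of 2 µg/ml doxycycline. The cassettes held Pou4f3 alone (iPou4f3), Gfi1 and Pou4f3 (iG+P), Pou4f3 and Atoh1 (iP+A), all 3 factors (iGPA), Atoh1 alone (iAtoh1) or Gfi1 and Atoh1 (iG+A). Every line received doxycycline, Pou4f3 was precipitated through a Myc tag, Atoh1 through a FLAG tag and Gfi1 with its own antibody. The tags were on the cassette proteins, so endogenous Pou4f3 and Atoh1 were not precipitated through them. Pou4f3 and Atoh1 ChIP and the inputs had 2 libraries per line, and Gfi1 ChIP had 1 library, in iGPA. Each cassette was in its own line, so that effects of a cassette and of a line cannot be told apart. Whole embryoid bodies were used, so that a weaker signal per cell and fewer induced cells cannot be told apart. The peaks had been called on merged replicates, so no spread between replicates is known for any value below, and every interval covers counting over sites only. Neighbouring sites are not independent. No RNA was measured in these libraries, so that the hair cell markers could not be read.

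The sequences below show 200 bp around the strongest Pou4f3 summit, 5′ to 3′ on the plus strand of the mm9 (NCBIM37) genome, each named by the gene with the nearest transcription start. Capitals mark matches to the Pou4f pattern ATAATTAAT with at most 1 mismatch on either strand, and overlapping matches run together. The first 4 are among the strongest Gfi1-line sites and the other 3 lie near genes of hair cells.
Slc16a7 member, chr10:124826999-124827198: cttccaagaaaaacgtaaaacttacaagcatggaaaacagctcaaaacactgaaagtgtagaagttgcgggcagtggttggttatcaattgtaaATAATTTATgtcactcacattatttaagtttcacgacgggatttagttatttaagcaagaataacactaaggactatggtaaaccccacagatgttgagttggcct
F13a1 member, chr13:37246674-37246873: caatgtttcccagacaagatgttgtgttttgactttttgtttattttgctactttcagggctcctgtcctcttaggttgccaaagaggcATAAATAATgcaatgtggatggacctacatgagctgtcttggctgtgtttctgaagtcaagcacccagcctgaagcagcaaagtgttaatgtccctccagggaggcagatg
Parvg member, chr15:84164700-84164899: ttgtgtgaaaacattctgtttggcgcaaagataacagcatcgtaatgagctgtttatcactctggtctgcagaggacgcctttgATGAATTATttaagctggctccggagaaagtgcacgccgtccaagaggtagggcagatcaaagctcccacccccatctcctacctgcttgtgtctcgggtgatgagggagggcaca
Slc16a6 member, chr11:109336571-109336770: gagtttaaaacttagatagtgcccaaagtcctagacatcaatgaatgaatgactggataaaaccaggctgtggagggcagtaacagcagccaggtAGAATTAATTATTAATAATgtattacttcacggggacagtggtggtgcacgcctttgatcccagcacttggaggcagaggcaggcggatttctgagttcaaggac
Pcdh15 member, chr10:73429183-73429382: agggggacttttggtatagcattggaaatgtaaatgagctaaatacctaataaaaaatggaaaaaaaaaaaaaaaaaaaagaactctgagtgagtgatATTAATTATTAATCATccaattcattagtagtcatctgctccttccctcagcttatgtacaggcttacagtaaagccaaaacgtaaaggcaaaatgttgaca
Grxcr1 member, chr5:68422921-68423120: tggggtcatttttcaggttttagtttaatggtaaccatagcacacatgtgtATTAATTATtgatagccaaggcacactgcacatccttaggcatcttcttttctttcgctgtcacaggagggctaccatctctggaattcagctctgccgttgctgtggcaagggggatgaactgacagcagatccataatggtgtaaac
Atoh1 member, chr6:64722502-64722701: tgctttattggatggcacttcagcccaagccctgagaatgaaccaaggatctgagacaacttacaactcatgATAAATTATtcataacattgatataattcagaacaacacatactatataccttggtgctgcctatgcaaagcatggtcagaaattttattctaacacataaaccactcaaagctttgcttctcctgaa

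The next sequences show sites of other kinds. The strongest Gfi1-line site of all (Tmprss7) and a GC-rich site 99 bp from the start of the Notch target gene Hes1 held no match in the stretch shown, and the site that also carried a Gfi1 peak (Sdccag8) held 1. One of the strongest mirror sites is added. It is not typical of its class, since it holds a match and lies 344507 bp from the nearest start. Of all mirror sites, 22.5% held a match and 49.1% lay within 1 kb of a start.
Tmprss7 member, chr16:45693050-45693249: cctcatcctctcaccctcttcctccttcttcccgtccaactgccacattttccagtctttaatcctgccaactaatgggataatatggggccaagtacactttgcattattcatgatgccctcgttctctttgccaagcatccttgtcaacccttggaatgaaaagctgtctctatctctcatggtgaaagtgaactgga
Hes1 member, chr16:30064271-30064470: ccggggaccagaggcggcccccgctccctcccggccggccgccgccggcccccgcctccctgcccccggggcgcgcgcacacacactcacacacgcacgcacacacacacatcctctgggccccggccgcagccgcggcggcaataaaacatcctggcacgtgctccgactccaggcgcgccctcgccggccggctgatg
Sdccag8 member, chr1:178925126-178925325: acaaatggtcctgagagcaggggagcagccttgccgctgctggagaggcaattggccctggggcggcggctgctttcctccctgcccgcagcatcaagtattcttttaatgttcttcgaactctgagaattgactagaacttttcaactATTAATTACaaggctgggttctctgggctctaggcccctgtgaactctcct
mirror site, chr8:130526364-130526563: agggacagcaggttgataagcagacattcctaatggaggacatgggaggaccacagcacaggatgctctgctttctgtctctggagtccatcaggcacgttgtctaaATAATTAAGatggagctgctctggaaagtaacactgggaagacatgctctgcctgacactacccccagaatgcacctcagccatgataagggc

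**Figure D1:**
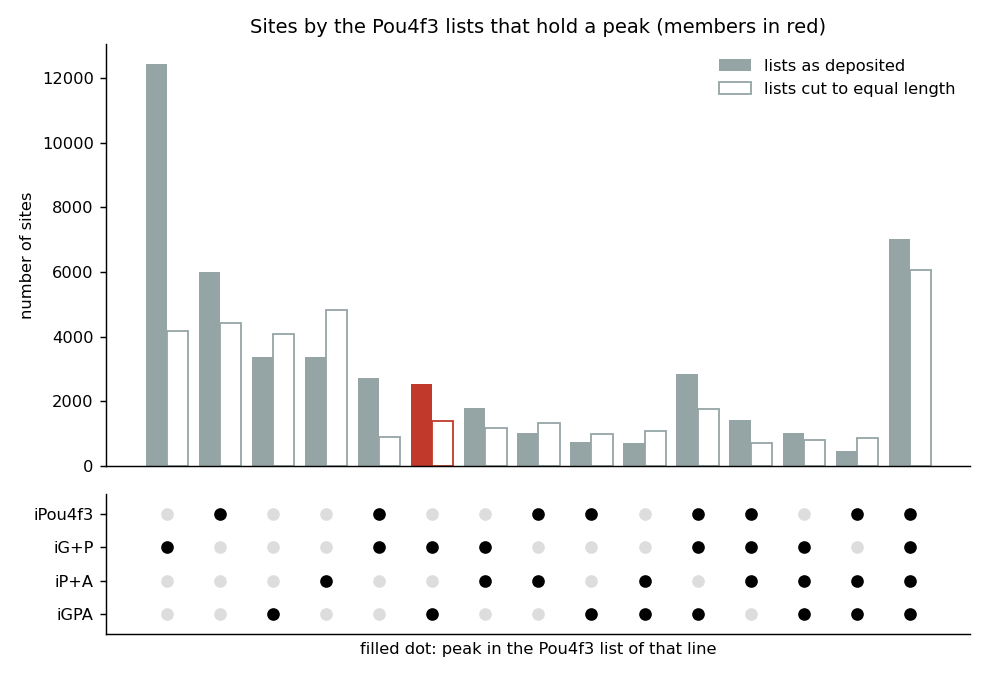
Number of sites (vertical axis) for each combination of the 4 Pou4f3 lists, shown by the dots beneath the bars; filled bars are the lists as deposited and open bars the lists cut to the length of the shortest. The Gfi1-line sites, in red, numbered 2530 against 1015 mirror sites in the deposited lists and 1386 against 1319 at equal length.

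How many sites fell into the class depended on the lengths of the lists. The 4 Pou4f3 lists held 22433 (iPou4f3), 32632 (iG+P), 17082 (iP+A) and 18751 (iGPA) peaks. Among the 6 classes with a peak in exactly 2 lists, the pair iPou4f3 and iG+P was the largest with 2714 sites, followed by the 2530 Gfi1-line sites, the 1796 sites of iG+P and iP+A and the 1015 mirror sites. All of the 3 largest classes thus included the long iG+P list. The Gfi1-line sites outnumbered the mirror sites by 2.49 times in the lists as deposited.

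When each list was cut to its 17082 strongest peaks, 1386 Gfi1-line sites and 1319 mirror sites were found, a ratio of 1.05. At that length the Gfi1-line class was the largest of the 2-list classes, ahead of the mirror class, iG+P with iP+A (1163) and iP+A with iGPA (1081). With peaks of −log10 p of at least 10 in every list, a measure of how far the reads at a summit exceed the background, the ratio was 5.19. The excess over the mirror class was therefore not a fixed property of the sites but moved with the threshold of the lists.

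Overlap can also be read as a share of each list. Of the Pou4f3 sites lacking a peak in both iPou4f3 and iP+A, 16.9% of those in iG+P were also in iGPA, and 42.8% of those in iGPA were also in iG+P. For the mirror class the corresponding shares were 14.5% of iPou4f3 and 23.1% of iP+A. At equal length they were 25.0% and 25.3% for the Gfi1-line class and 23.0% and 21.5% for the mirror class.

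**Figure D2:**
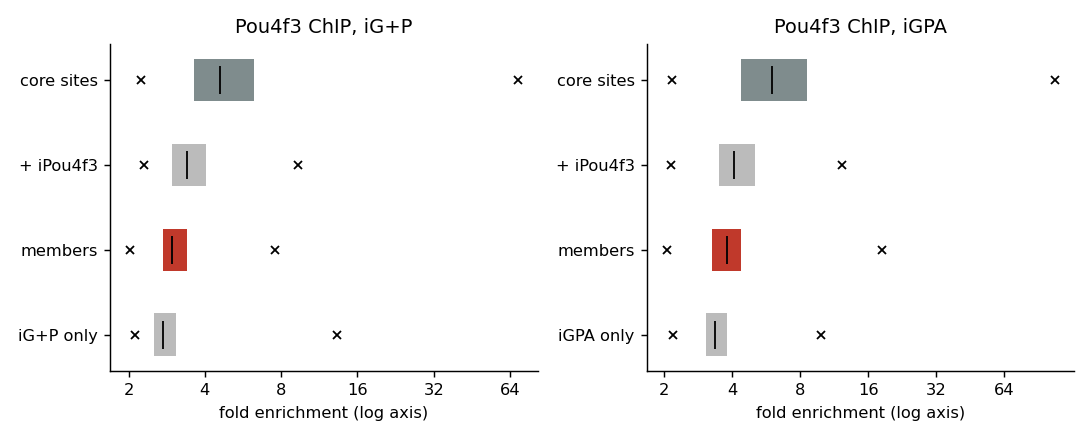
Fold enrichment at the summit over the local background (log axis) in the Pou4f3 lists of iG+P (left) and iGPA (right): bars run from the first to the third quartile, ticks mark the median and crosses the lowest and highest value. The label + iPou4f3 stands for sites that had a peak in iPou4f3 as well as in iG+P and iGPA; Gfi1-line sites (members, red) had medians of 2.96 and 3.78.

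Gfi1-line sites were weaker peaks than core sites in both lists that defined them. Since the rule used these lists, the enrichments describe the sites and are not tested. The median fold enrichment was 2.96 in iG+P (quartiles 2.74 and 3.39, highest 7.55) and 3.78 in iGPA (quartiles 3.24 and 4.37, highest 18.5). Over all listed peaks the medians were 2.96 in iG+P and 4.08 in iGPA. The Gfi1-line median thus equalled that of the iG+P list and was lower than that of the iGPA list. Core sites had medians of 4.60 and 5.97, and sites found in a single list had 2.74 (iG+P) and 3.35 (iGPA). The 2848 sites that had a peak in iPou4f3 as well as in both Gfi1 lines lay between, with medians of 3.39 and 4.08.

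The fragments behind these folds could be recovered from the fold and the −log10 p for 99.9% of the iG+P and 99.7% of the iGPA peaks. A Gfi1-line site had a median of 26 fragments at its iG+P summit (quartiles 24 and 31) and 25 at its iGPA summit (quartiles 22 and 29). At the most frequent local background, the weakest listed peaks had 20 fragments in iG+P and 17 in iGPA, so that the typical site lay a few fragments above the limit of its list. In iPou4f3 and iP+A the corresponding limits were 19 and 20 fragments. A site with fewer fragments there counts as lacking a peak, which is not the same as lacking Pou4f3.

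The 2 folds of a site were weakly related across the Gfi1-line sites (Spearman's rho = 0.29 over 2530 sites that share their calling and threshold), against 0.74 across the 7032 core sites. The 2 rho values are not directly comparable, since the Gfi1-line folds spanned a narrower range. The highest iG+P fold was 7.55 at Gfi1-line and 69.0 at core sites. The summits themselves lay close together, with a median distance of 27 bp between the iG+P and iGPA summits and both within 50 bp at 73.0% of the sites. The joining of windows partly set this closeness, and no distance at core sites is given beside it. Fold enrichment was higher in iGPA at 83.8% of the Gfi1-line sites. Folds were also higher over the whole iGPA list, with a median of 4.08 against 2.96 in iG+P. At core sites the medians were 5.97 and 4.60, so that the higher iGPA folds were not particular to the Gfi1-line sites. Just inside the rule, the weakest value of −log10 p in a list was 3.87, and at 395 sites the lower of the 2 values was under 5. Just outside it, 90 of the 2848 sites that failed only through an iPou4f3 peak had a −log10 p under 5 in that list, and so did 34 of the 1003 sites that failed only through an iP+A peak.

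Sites joined to a Pou4f3 window of iPou4f3 or iP+A were removed by the rule. The gaps from Gfi1-line sites to those windows were thus partly set by the choice. Of the Gfi1-line sites, 71 lay less than 300 bp from the nearest iPou4f3 window and 59 from the nearest iP+A window. The median gaps were 26289 bp and 41934 bp. Gaps also depend on the lengths of the lists, and none of other classes are given beside them. Each list also had peaks that were called by the software but left out of the summit list. Such an unlisted peak touched 54 sites in iPou4f3 (2.13%, exact 95% interval 1.61 to 2.78) and 118 in iP+A (4.66%, 3.88 to 5.56). For the 5 other classes with peaks in exactly 2 lists, the shares for the lists they lacked ran from 3.17% to 15.2%.

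Sites were ranked by the lower of their 2 fold enrichments. The strongest was at chr16:45693000-45693304, in an intron of Tmprss7, a gene for a membrane serine protease, 621 bp from an annotated start. Its fold enrichment was 7.55 in iG+P and 18.5 in iGPA, and it held no match to the Pou4f pattern. The site at chr10:124826941-124827248 lay 61080 bp from the start of Slc16a7, a monocarboxylate transporter gene, and reached 6.57-fold and 6.99-fold. Another lay 104661 bp from F13a1, the gene of a clotting factor subunit, with 6.46-fold and 6.99-fold. Both intergenic sites held 1 match each, printed above.

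Of the remaining 7 of the 10 strongest sites, the one nearest Tbc1d5 (247144 bp away) reached 6.46-fold in iG+P and 10.8-fold in iGPA and was the only one of the 10 with an Atoh1 peak, in iGPA. A site in a coding exon of Parvg, which encodes a focal adhesion protein, reached 6.24-fold and 7.43-fold. An intronic site of Arsg, 1759 bp from the start of Slc16a6, reached 5.91-fold and 5.97-fold and held 4 overlapping matches. The other 4 lay in introns of Uqcc, Eml6 and Sema6d and between genes, with folds of 5.36 to 6.35 in iG+P and 6.41 to 7.86 in iGPA. The 10 strongest sites held a match in 5 cases and a Gfi1 peak in none.

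The sequence recognised by Pou4f factors was frequent at Gfi1-line sites. In the 250 bp around the summit, 1537 of 2530 sites held at least 1 match to ATAATTAAT with at most 1 mismatch (60.8%, exact 95% interval 58.8 to 62.7). In windows of the same length centred 1000 bp to either side, 11.6% did. Over all Pou4f3 sites the share was 38.0%, at core sites 60.2% and at mirror sites 22.5%. The Gfi1-line sites exceeded the mirror sites by 38.3 percentage points (Newcombe 95% interval 35.0 to 41.4), and differed from the core sites by 0.512 points, with an interval of −1.72 to 2.72. Outside stretches of the genome crowded with peaks, described below, the difference from core sites was 2.31 points (0.0397 to 4.54).

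**Figure D3:**
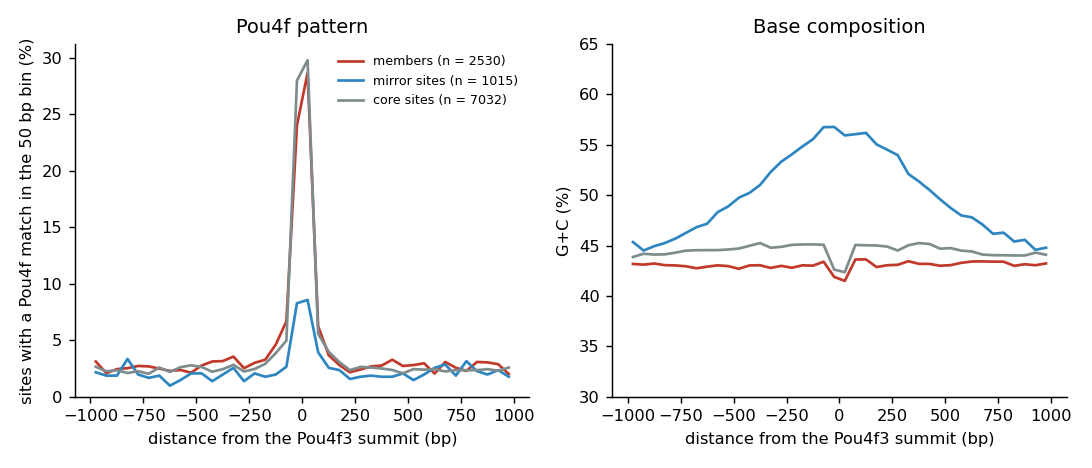
Left, percentage of sites with the centre of a Pou4f match in each 50 bp bin against distance from the Pou4f3 summit, for Gfi1-line (members), mirror and core sites; right, G+C content in the same bins. In the 2 bins at the summit a match was present at a mean of 26.3% of the Gfi1-line, 28.9% of the core and 8.42% of the mirror sites, and G+C content peaked at the summit only in the mirror sites.

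The matches sat at the summits. On average 26.3% of the Gfi1-line sites had a match in each of the 2 bins of 50 bp next to the summit, falling to 2.59% per bin beyond 500 bp. A single match was found at 918 sites, 2 at 437, 3 at 111 and 4 or more at 71. The full pattern with no mismatch was present at 9.88% of the Gfi1-line sites, 12.1% of the core sites and 3.25% of the mirror sites, against 0.534% in the flanks of the Gfi1-line sites. This exact form was thus less frequent than at core sites, the difference being −2.22 points (interval −3.57 to −0.789).

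Match frequency did not rise steadily with the strength of the peak. In 4 equal groups from the weakest to the strongest by iG+P fold, 56.9%, 60.8%, 63.0% and 62.4% of the Gfi1-line sites held a match. By iGPA fold the 4 groups held 52.5%, 62.7%, 66.8% and 61.1%. The weakest group was thus the lowest by either list, and the strongest was not the highest by either.

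Across the 15 classes of sites, the share with a match was highest where both iG+P and iGPA had a peak. It was 60.8% at Gfi1-line sites, 60.7% at sites with an added iPou4f3 peak, 52.7% with an added iP+A peak and 60.2% at core sites. The other 11 classes ranged from 18.4% (iP+A alone) to 44.0% (iPou4f3 and iGPA). Among these, the classes with an iGPA peak held 36.3% to 44.0%. The classes without an iGPA peak, with or without iG+P, held 18.4% to 35.6%, so that the iGPA list alone already separated the shares. The Gfi1-line sites therefore had a share of matches close to that of the sites common to all lines, at a lower enrichment.

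Base composition differed between the classes as well. Median G+C content in the 250 bp was 41.6% at Gfi1-line sites, 42.4% at core sites and 55.2% at mirror sites, and 49.1% of the mirror sites lay within 1 kb of a transcription start. Among sites over 1 kb from a start, a comparison added after the data had been seen, G+C content was 41.2% for the Gfi1-line and 42.0% for the mirror sites, and 63.5% against 41.4% held a match. The difference was then 22.1 points (interval 17.4 to 26.7) and that from distal core sites −0.768 points (−3.08 to 1.51). On every one of 20 chromosomes the share was higher at Gfi1-line than at mirror sites.

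Among all words of 7 letters, AATAATT on either strand was the most frequent at Gfi1-line summits beyond its frequency in their flanks, in 31.3% of the 100 bp windows at the summits against 2.49% of the flanking windows. It was also the first at core sites (30.1%), and it was present at 8.67% of mirror sites. The next words, TAAATAA (23.9%) and AAATAAT (21.5%), ranked 5 and 8 at core sites. These words were ranked on the same sites and overlap with each other and with the Pou4f pattern. Of the 993 Gfi1-line sites without a Pou4f match, 19.3% held at least 1 of the 3 words, against 8.01% of their flanks.

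Among the other sequence patterns, the core homeodomain word TAATTA, which lies within the Pou4f pattern, also exceeded the flanks and was present at 26.1% of the Gfi1-line sites and 8.56% of flanking windows. The octamer ATGCAAAT of other POU factors was present at 1.90% against 1.72%. The Gfi1 words AATCACAGC and AATCACTGC, searched together, were present at 12 sites (0.474%, exact 95% interval 0.245 to 0.827) against 0.376% of flanking windows, and the difference from core sites was −0.208 points (−0.508 to 0.182). The Gfi1 words were allowed no mismatch, unlike the Pou4f pattern, which was present at 9.88% of the Gfi1-line sites in its exact form. Whether these words find sites bound by Gfi1 was not tested.

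Of the E-boxes, the sites of Atoh1 and other bHLH factors, the short ones were close to the flanks. CAGATG was found at 17.9% of the Gfi1-line sites and 17.8% of flanking windows, CAGCTG at 11.2% and 10.6%, and the extended AtEAM E-box of Atoh1 at 2.61% and 1.76%. The Runx word TGTGGT (17.0%), the Gata word AGATAA (16.2%), the AP-1 word TGANTCA (6.64%), the Sox word ACAAAG (19.7%) and the Tead word GGAATG (11.8%) were each within 2 points of the flanks.

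The GC box GGGCGG, common in promoters, separated the Gfi1-line from the mirror sites. It was present at 5.89% of the Gfi1-line sites (3.95% of their flanks) and 34.6% of the mirror sites, a difference of −28.7 points (interval −31.8 to −25.7). Core sites had it at 8.66%. The Ets word CCGGAAG was present at 1.30% of the Gfi1-line sites (0.791% of their flanks) and 5.52% of the mirror sites. Neither a match nor its absence shows what was bound.

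A small part of the Gfi1-line sites lay in stretches crowded with peaks. Of 2552 stretches of 1 Mb with Pou4f3 sites, 38 held at least 62 such sites, which was 4 times the median of 15.5, and they contained 13.3% of all Pou4f3 sites. Within them were 133 Gfi1-line sites (5.26%), of which 58 were on chromosome 14 and 19 on chromosome 4. These stretches were defined after the data had been seen. Only 19.5% of the Gfi1-line sites inside them held a Pou4f match, against 63.0% of the 2397 outside, and 45.9% of those inside had an Atoh1 peak in iAtoh1, against 2.46% outside. The main values for other factors are therefore given with and without these stretches below.

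Gfi1 itself was rarely listed at Gfi1-line sites. In iGPA, the only line with a Gfi1 ChIP, 43 of 2530 sites carried a Gfi1 peak (1.70%, exact 95% interval 1.23 to 2.28), against 3.04% of all Pou4f3 sites. The share was 4.24% at mirror sites and 5.28% at core sites. The difference from mirror sites was −2.54 points (interval −4.02 to −1.31) and that from core sites −3.58 points (−4.28 to −2.81). Outside the crowded stretches it was 1.46%, against 4.09% of mirror and 5.10% of core sites. Over 1 kb from a start it was 1.38%, against 2.71% of mirror sites (difference −1.33 points, −3.16 to −0.107) and 4.43% of core sites (−3.06 points, −3.73 to −2.31).

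On each of 20 chromosomes the share with a Gfi1 peak was lower at Gfi1-line than at core sites. The Gfi1 list was short, with 3012 peaks from 1 library, so that a site without a listed peak may still bind Gfi1. Sites with a peak in both Gfi1 lines and in iPou4f3, but not in iP+A, had a similar share (1.90%), whereas those with an added iP+A peak had 5.28%. Sites of iP+A and iGPA had the highest share of all classes (9.78%), and sites of iG+P alone had the lowest (1.55%). A low share was thus not particular to the Gfi1-line sites.

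The 43 Gfi1-line sites with a Gfi1 peak differed from the other Gfi1-line sites. Their median G+C content was 49.6%, 11 of them lay within 1 kb of a start, 13 held a Pou4f match and 1 held a Gfi1 word. An Atoh1 peak in iGPA was present at 26 of the 43 (60.5%), and 8 of the 43 lay in crowded stretches. The 3 with an Atoh1 peak in all 4 Atoh1 lists lay at chr1:178924830-178925492 in an intron of Sdccag8, a centrosome protein gene (2.96-fold in iG+P and 3.50-fold in iGPA), at chr6:136419347-136419782 between genes (2.74-fold and 4.48-fold), and at chr10:120947224-120947829 34068 bp from the start of Rassf3 (2.41-fold and 3.35-fold). None of the 3 was among the strongest Pou4f3 peaks.

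**Figure D4:**
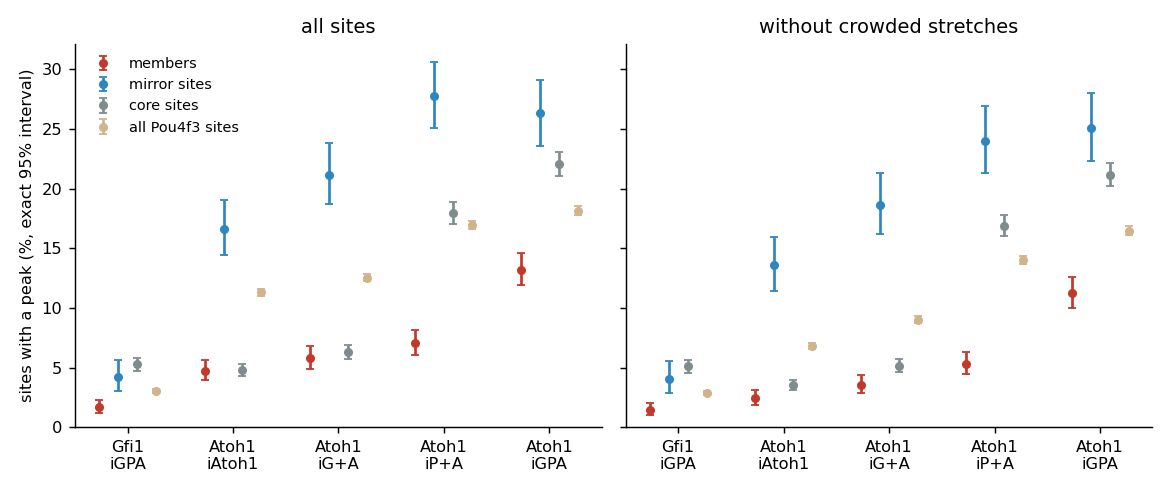
Percentage of Gfi1-line (members), mirror, core and all Pou4f3 sites with a Gfi1 or Atoh1 peak in the named line, with exact 95% intervals, for all sites (left) and without the crowded stretches (right). Among the classes shown, Gfi1-line sites had the lowest share with a Gfi1 peak (1.70%). Their share with an Atoh1 peak was 13.2% in iGPA, whose Atoh1 list was the longest.

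Atoh1 peaks were also infrequent at Gfi1-line sites. The Atoh1 lists differed in length, from 15568 (iAtoh1) through 18949 (iP+A) and 20504 (iG+A) to 26231 peaks (iGPA), so that shares in different lines are not directly comparable. An Atoh1 peak was present at 120 sites in iAtoh1 (4.74%, exact 95% interval 3.95 to 5.65, and all Pou4f3 sites 11.3%) and at 147 in iG+A (5.81%, 4.93 to 6.79, and all Pou4f3 sites 12.5%). It was present at 179 sites in iP+A (7.08%, 6.11 to 8.15, and all Pou4f3 sites 17.0%) and at 334 in iGPA (13.2%, 11.9 to 14.6, and all Pou4f3 sites 18.2%). No Atoh1 peak of any line was present at 2099 sites (83.0%), and 40 sites had Atoh1 peaks in all 4 lines.

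Mirror sites had higher shares, with 16.7%, 21.2%, 27.8% and 26.3% in the same order. Core sites were close to the Gfi1-line sites in iAtoh1 (4.79%) and iG+A (6.29%), with differences of −0.0493 points (−0.974 to 0.968) and −0.475 points (−1.51 to 0.646). In the lines that also expressed Pou4f3 the core sites had more Atoh1 peaks, the Gfi1-line share differing by −10.9 points in iP+A (−12.2 to −9.49) and −8.87 points in iGPA (−10.5 to −7.20). Outside the crowded stretches the Gfi1-line shares were 2.46%, 3.55%, 5.34% and 11.3%, and there core sites were higher in iAtoh1 (3.54%, difference −1.07 points, −1.79 to −0.261) and iG+A (5.18%, −1.63 points, −2.50 to −0.673) as well.

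Adding Gfi1 to the cassette could be compared at the same sites in 2 pairs of Atoh1 lists. Between iG+A and iAtoh1, 76 Gfi1-line sites had the peak in iG+A only and 49 in iAtoh1 only, so that 60.8% of the discordant sites favoured the line with Gfi1 (exact 95% interval 51.7 to 69.4). Between iGPA and iP+A, 209 had it in iGPA only and 54 in iP+A only (79.5%, 74.1 to 84.2). Over all Pou4f3 sites these shares were 55.3% and 54.2%, at core sites 69.2% and 70.2%, and at mirror sites 62.9% and 46.6%. The rule had used iGPA and iP+A, whose Pou4f3 and Atoh1 lists share a cell line and its inputs, so the iGPA and iP+A values are a description, and the pair iG+A and iAtoh1 is the one outside the rule. Outside the crowded stretches the Gfi1-line shares were 68.1% and 84.1%. The same shares there were 64.4% and 61.2% over all Pou4f3 sites, 74.6% and 71.7% at core sites, and 66.4% and 52.7% at mirror sites. For iG+A and iAtoh1 the Gfi1-line interval there, 56.0 to 78.6, included the share of each other class.

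In both pairs the list of the line with Gfi1 was the longer one. With each Atoh1 list cut to its 15568 strongest peaks, a comparison added after the data had been seen, an Atoh1 peak was present at 4.74% (iAtoh1), 4.82% (iG+A), 6.01% (iP+A) and 7.87% (iGPA) of the Gfi1-line sites. The discordant sites of iG+A and iAtoh1 were then 62 and 60 (50.8% in the line with Gfi1, 41.6 to 60.0), so that no gain was seen in the pair outside the rule. For that pair the share was 43.8% over all Pou4f3 sites, 53.9% at core sites and 48.8% at mirror sites, each inside that interval. The discordant sites of iGPA and iP+A were 115 and 68 (62.8%, 55.4 to 69.9), against 34.1% over all Pou4f3 sites and 49.7% at core sites. In iGPA the Gfi1-line share stayed below that of mirror (13.9%) and core sites (16.2%).

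The 334 Gfi1-line sites with an Atoh1 peak in iGPA had a different sequence make-up from the other 2196. A Pou4f match was present at 34.4% of them against 64.8% of the others, a difference of −30.3 points (interval −35.6 to −24.7). CAGCTG was present at 30.2% against 8.29%, CAGATG at 26.0% against 16.6% and the AtEAM E-box at 8.08% against 1.78%, with every interval of these differences above 0. They also had more Gfi1 peaks (7.78% against 0.774%), lay within 1 kb of a start more often (17.4% against 6.74%), and had a median G+C content of 46.4% against 41.2%. Outside the crowded stretches 39.6% of 270 held a Pou4f match, against 66.0% of 2127.

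Of these 334 sites, 150 had an Atoh1 peak in no other Atoh1 list. Where the Atoh1 peak was in iG+A, a line without Pou4f3, a Pou4f match was present at 12.9% of 147 Gfi1-line sites against 63.7% of the rest. Of these 147 sites, 62 lay in the crowded stretches, where matches were rarer, and this split was not made outside them. The Gfi1-line sites thus were not uniform, with Pou4f matches less frequent and E-boxes more frequent where Atoh1 was listed in iGPA.

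**Figure D5:**
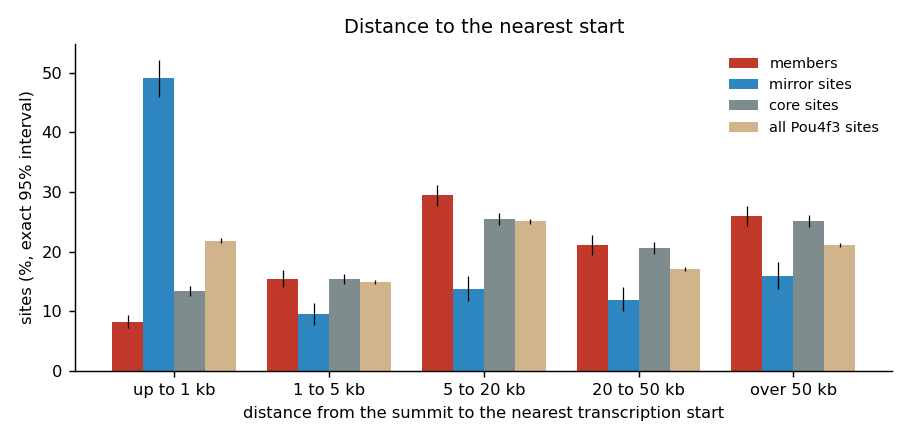
Percentage of sites by distance from the Pou4f3 summit to the nearest annotated transcription start, with exact 95% intervals, for Gfi1-line (members), mirror, core and all Pou4f3 sites. Within 1 kb lay 8.14% of the Gfi1-line and 49.1% of the mirror sites, and over 50 kb away 25.9% and 15.9%.

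Gfi1-line sites were mostly far from transcription starts. Within 1 kb of a start lay 206 of them (8.14%, exact 95% interval 7.11 to 9.28), against 21.8% of all Pou4f3 sites, 13.4% of core sites and 49.1% of mirror sites. The difference from core sites was −5.25 points (interval −6.55 to −3.88) and from mirror sites −40.9 points (−44.1 to −37.7). The median distance was 17719 bp (quartiles 5521 and 53337), and 656 sites lay over 50 kb away. By position, 1282 sites were intronic (50.7%), 1131 intergenic (44.7%), 65 in untranslated regions, 30 in coding exons and 22 in other exons.

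Sites near starts were most frequent in the iPou4f3 list. Sites found in iPou4f3 alone lay within 1 kb of a start in 45.3% of cases, those of iP+A alone in 22.9%, of iG+P alone in 16.1% and of iGPA alone in 11.3%. The 206 Gfi1-line sites near a start held a Pou4f match in 30.1% of cases and the GC box in 38.3%. Their share with an iGPA Atoh1 peak was 28.2%. No shares of other classes near a start are given beside these values. Core sites went the same way when those within 1 kb of a start were left out. Their match share then rose from 60.2% to 64.2%, and the GC box fell from 8.66% to 4.43%. Their iGPA Atoh1 share fell from 22.1% to 19.3%.

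The genes nearest to Gfi1-line sites were read against 7 lists of genes, leaving out small RNA genes and pseudogenes. In all, 67 sites lay nearest to a start of 46 listed genes, of which 40 held a Pou4f match, 7 had an Atoh1 peak in any line and 1 had a Gfi1 peak. The lists were chosen with results of these data known, and a nearest gene need not be regulated by the site.

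Genes of hair cell structure and function were nearest to 11 Gfi1-line sites (0.435%, exact 95% interval 0.217 to 0.777), against 0.291% of all Pou4f3 sites and 0.299% of core sites. They fell in 10 of the 47 annotated genes of the list. A site in an intron of Pcdh15, which encodes a protein of the tip link of hair bundles, had 2.74-fold enrichment in iG+P and 4.08-fold in iGPA and 3 overlapping matches. A site 53 bp from the start of Grxcr1, needed for normal hair bundles, had 3.72-fold and 3.35-fold. None of the 11 had an Atoh1 peak.

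Other hair cell genes of the list were Eps8, which sets stereocilia length (3.61-fold in iG+P and 3.06-fold in iGPA), the potassium channel gene Kcnma1 with 2 sites (2.52-fold and 3.43-fold, 4.38-fold and 4.95-fold), Gipc3, Myo3a, Myo3b, Ush1c and Xirp2. Of the 11 sites, 6 held a Pou4f match, and enrichment in iGPA ran from 2.77-fold to 4.95-fold, within the range of the Gfi1-line sites as a whole.

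Hair cell regulators were nearest to 2 Gfi1-line sites (0.0791%, exact 95% interval 0.00958 to 0.285), against 0.209% of all Pou4f3 sites. The site on chromosome 6 lay 43462 bp from the start of Atoh1 (2.74-fold in iG+P and 3.79-fold in iGPA), and the other 227854 bp from Eya1, a co-factor of early inner ear development (2.85-fold and 3.79-fold). Both held Pou4f matches. Notch genes, which restrain hair cell fate, were nearest to 2 sites as well (0.0791%), against 0.152% of all Pou4f3 and 0.156% of core sites. The Hes1 site lay 99 bp from the start, reached 2.74-fold and 2.50-fold, had a G+C content of 72.0% and carried Atoh1 peaks in all 4 lists, whereas the Hey1 site lay 41769 bp away, reached 4.49-fold and 7.14-fold and carried none.

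Genes of neuronal structure and axon guidance were the most frequent list, nearest to 32 Gfi1-line sites in 17 genes (1.26%, exact 95% interval 0.867 to 1.78). The share was 0.902% of all Pou4f3 sites and 1.20% of core sites, both inside that interval. Robo1, a receptor of Slit guidance cues, had 4 sites, with enrichments of 2.74-fold, 3.17-fold, 2.96-fold and 2.63-fold in iG+P and 4.51-fold, 3.79-fold, 4.08-fold and 3.20-fold in iGPA. Robo2, Sema3a and the ephrin receptor gene Epha4 had 3 sites each. The 3 Sema3a sites, all intronic, reached 3.06-fold, 2.74-fold and 2.63-fold in iG+P and 3.35-fold, 3.50-fold and 3.06-fold in iGPA, and none of them had an Atoh1 peak. Of the 32 sites, 20 held a Pou4f match and 3 had an Atoh1 peak.

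Neuronal regulators were nearest to 9 sites (0.356% against 0.386% of all Pou4f3 sites). Myt1l, a zinc-finger factor of neurons, had 3, and the one 248056 bp from its start reached 2.52-fold in iG+P and 8.45-fold in iGPA, with Atoh1 peaks in iP+A and iGPA. Runx1 had 2 sites, and Lhx9, Pou3f3, Pou4f1 and St18 had 1 each. The Pou4f1 site lay 108722 bp from the start of that gene, the sister gene of Pou4f3, with 3.06-fold and 4.81-fold.

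Blood regulators and partners of Gfi1 were nearest to 8 sites (0.316%, exact 95% interval 0.137 to 0.622), against 0.215% of all Pou4f3 sites. The receptor gene Kit had 3 of them and Gata2, Runx2, Ets1, Csf1r and Cbfa2t3 had 1 each. The Cbfa2t3 site, at 3.50-fold in iG+P and 3.93-fold in iGPA, was the 1 listed site with a Gfi1 peak, and Cbfa2t3 encodes a corepressor. Genes of pluripotency and germ layers were nearest to 3 sites, near Nanog, Klf2 and Lefty2 (0.119% against 0.120%). The Nanog site, 1684 bp from a start, held 4 matches and reached 3.61-fold and 3.20-fold.

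Gfi1-line sites were spread over many genes. They lay nearest to 2138 genes, of which 1825 had 1 site, 247 had 2 and 66 had 3 or more. The genes Cadm1, Creb1, Dlgap1, Fam135a, Grm8, Lsamp, Pcdh9, Pik3c3 and Robo1 had 4 each. Cadm1, a cell adhesion gene, was nearest to 75 Pou4f3 sites in all, whereas Dlgap1, a postsynaptic scaffold gene, was nearest to 7, of which 4 were Gfi1-line sites and 0 core sites. Its 4 sites reached 3.61-fold, 3.72-fold, 3.17-fold and 3.06-fold in iG+P and all held a Pou4f match. Over all Pou4f3 sites the Gfi1-line share was 5.33%. Dlgap1 was picked from 2138 genes for its high share, and whether that share exceeded chance was not tested.

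Nfix, a nuclear factor gene picked in the same way, was nearest to 5 Pou4f3 sites, of which 3 were Gfi1-line sites, each with an Atoh1 peak in iGPA. Gm2964 and Gm9726 had 5 sites each. The 5 sites at Gm2964, on chromosome X, held no Pou4f match and 4 of them carried Atoh1 peaks, whereas 4 of the 5 at Gm9726 held matches and none carried an Atoh1 peak. The clusters near Gm3667, Gm3696 and Gm8356 on chromosome 14 and Vmn2r32 on chromosome 7 each had 3 sites, of 70, 40, 48 and 54 Pou4f3 sites nearest to those genes.

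The share of Gfi1-line sites varied between chromosomes. On the autosomes and X they were between 3.79% (chromosome 14) and 7.10% (chromosome 15) of the Pou4f3 sites of a chromosome, with a median of 5.50%, and none of the 44 Pou4f3 sites on Y was among them. None lay in an exon of Gfi1, Pou4f3 or Atoh1, where DNA of the cassette could itself give reads. A short tandem repeat covered the summit at 10 sites (0.395%).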

How the data were processed

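The data were ChIP-seq peak lists from 6 doxycycline-inducible embryonic stem cell lines. The submitters' processing notes name Trimmomatic, Bowtie2, Picard, SAMtools, bedtools and MACS2 with the mm9 genome, without versions in the sources used here. MACS2 peaks were called by the authors on merged replicates against input. The deposited peak files give the fold enrichment at the summit, as a linear ratio, and its −log10 p, both as written by MACS2. The deposited summit lists are shorter than the called sets by 14.1% to 31.5% among the Pou4f3 lists, and the filter behind this is not given in the sources used here. A further deposited signal column of the summit lists has no stated definition and was not used.

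Windows of 300 bp on the summits were joined where they shared at least 1 bp. Library depths are not given, and fragments were recovered by matching the fold and −log10 p to whole numbers under a Poisson model with a tolerance of 0.001 (in log10 units). Distances to starts used all transcripts of the GENCODE M1 annotation on NCBIM37, and nearest genes left out small RNA genes and pseudogenes, a choice made after seeing the names. Sequence patterns were searched on both strands in 250 bp around the strongest summit and in equal windows 1000 bp to each side. Shares carry exact (Clopper-Pearson) 95% intervals and differences Newcombe intervals, with no p-value, since sites are not replicates. Named sites were the 10 with the highest value of the lower of their 2 folds, up to 3 with the most other factors, members nearest to listed genes, and genes with 3 or more members. The site nearest to 1 gene of the lists is counted but not reported here by name. The members and gene lists were chosen with earlier results of these data known. Scripts were tested on simulated data and used Python 3.11.15, numpy 2.4.6, pandas 2.3.3, scipy 1.17.1, pysam 0.24.0 and matplotlib 3.10.9. Alternatives changed the window, the lengths of the Pou4f3 or Atoh1 lists, the threshold, the pattern and the chromosomes included.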

Additional observations from a re-analysis of the deposited data

Results flagged for a closer look

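Some Gfi1-line sites had a signal in peaks that no list kept. A Pou4f3 peak that had been called in iPou4f3 but left out of its summit list touched 2.13% of the sites, and one left out of the iP+A list touched 4.66%. Both shares describe what a missing peak means in these lists.

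In the lists as deposited, the difference in Atoh1 peaks between lines with and without Gfi1 was not equal in the 2 pairs of lines. The share of Gfi1-line sites with an Atoh1 peak was 6.13 points higher in iGPA than in iP+A (4.89 to 7.36), and 1.07 points higher in iG+A than in iAtoh1 (0.202 to 1.93), so that these values differed by 5.06 points (3.59 to 6.52). Over all Pou4f3 sites the corresponding difference was −0.013 points (−0.45 to 0.425), at core sites 2.63 points (1.77 to 3.49) and at mirror sites −6.01 points (−9.62 to −2.40). The rule that chose the sites used the Pou4f3 lists of iGPA and iP+A, and the Atoh1 lists of those lines share their input libraries, so the difference is not independent of the choice. Outside the crowded stretches it was 4.84 points. The Atoh1 lists of the lines with Gfi1 were the longer ones. With all 4 cut to equal length it was 1.78 points (0.468 to 3.09), from 1.86 points (0.812 to 2.90) in the first pair and 0.0791 points (−0.777 to 0.935) in the second, and it was −2.19 points over all Pou4f3 sites.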

How the results depend on the processing

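Of 144 alternative values, 83 stayed within the interval of the reported one and 61 moved beyond it. The count of sites has no such interval, and a fixed band from 1687 to 3795 was used for it instead. No paired analysis was possible because peaks had been called on merged replicates, and for the same reason no library could be left out. The Atoh1 shares below are in the order iAtoh1, iG+A, iP+A and iGPA. With −log10 p of at least 10 there were 1127 sites, 5.19 per mirror site, with median folds of 4.05 (iG+P) and 4.95 (iGPA), a Gfi1 share of 0.444%, Atoh1 shares of 0.887%, 0.887%, 1.78% and 5.68%, and a Pou4f match at 63.5%. At that threshold the Gfi1 share was 4.14% at core sites and 1.97% over all Pou4f3 sites. It was 0.922% at 217 mirror sites, with an interval of 0.112 to 3.29 that included the Gfi1-line share. At equal list length there were 1386 sites, 1.05 per mirror site, with median folds of 3.50 and 4.08, a Gfi1 share of 1.23%, an iGPA Atoh1 share of 11.8%, a match at 63.4% and 6.49% near a start. With all called peaks the ratio was 2.08, the Gfi1 share 2.34%, the Atoh1 shares 9.40%, 9.63%, 11.5% and 15.9%, and a match was present at 57.2%. With absence judged on all called peaks the ratio was 2.74, the Atoh1 shares 2.31%, 3.32%, 5.08% and 10.8%, the match share 63.5% and the share near a start 6.81%. With sites of at most 600 bp the ratio was 2.83 and the Atoh1 shares 2.88%, 3.65%, 5.42% and 11.0%. Windows of 100 bp gave Atoh1 shares of 3.33%, 3.90%, 5.87% and 10.8%, and windows of 1000 bp gave a match at 63.3% and 5.73% near a start. Leaving out chromosome 14, which gave the lowest values of all chromosomes, left Atoh1 shares of 3.68% in iAtoh1 and 4.73% in iG+A. A match with no mismatch was present at 9.88%, and one within 100 bp at 48.5%. Within 5 kb of a start lay 23.6%, and within 1 kb of a protein-coding start 6.92%. Chosen after seeing the data, sites over 1 kb from a start had Atoh1 shares of 4.39% (iG+A), 6.02% (iP+A) and 11.9% (iGPA) and a match at 63.5%, Atoh1 lists of equal length gave 4.82% (iG+A), 6.01% (iP+A) and 7.87% (iGPA), and sites outside crowded stretches had Atoh1 shares of 2.46%, 3.55%, 5.34% and 11.3% and a match at 63.0%.

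The count of sites, its ratio to the mirror class and the Atoh1 shares thus depended on the length or threshold of the lists, whereas the Pou4f match was present at 57.2% to 63.5% of the sites in every alternative that kept the pattern and its window. Depth limits what a missing peak can show, since a peak needed 17 to 20 fragments at the usual background.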
